A study of Homo sapiens with 6 samples.

Results

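The genes described here encode receptor tyrosine kinases and the growth factors that bind them. A list of 36 symbols was drawn up by name, 22 receptors and 14 ligands, and matched to the gene names of a table of 18398 genes. The match found 33 of the 36, which were 19 receptors and all 14 ligands; MST1R, FGFR2 and ROR2 were not analysed here. Of the 33, 32 passed a filter on low counts, and the exception was BTC.

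RNA sequencing compared 2 groups of 3 libraries of SUM159, a human breast cancer cell line of the triple-negative, mesenchymal-like kind. Control cells carried the empty lentiviral vector pLVX. POGK cells were a stable line made with the same vector and overexpressing POGK, a protein with a KRAB domain that derives from a pogo-like transposable element. Both groups grew in Ham's F12 medium with fetal bovine serum, insulin and hydrocortisone, so insulin, the ligand of INSR, was supplied to all cells. The labels do not say whether the POGK cells were a clone or a pool. Nor do they state that replicates came from separate cultures, and p-values therefore cover the spread among these libraries alone, which may be technical.

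Receptor tyrosine kinases sit in the cell membrane and are switched on when a ligand brings receptor chains together, after which the chains phosphorylate each other and recruit adaptor proteins to the RAS, PI3K and phospholipase C pathways. EGFR family ligands are made as membrane-bound precursors that are cut free by ADAM proteases, while HGF and several PDGFs need a protease to become active. In mesenchymal breast cancer cells AXL, EGFR, MET and the PDGF receptors are well-known members of the family. PTK7, RYK, ROR1 and ERBB3 belong to the family by structure but have little or no kinase activity of their own.

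Total counts ran from 27645789 to 33689230 per library. POGK, the introduced gene, was at 62.6, 77.3 and 66.9 CPM in the control libraries and at 743, 781 and 780.3 CPM in the POGK libraries, as the labels state. CPM are counts scaled to a common depth, here with library sizes adjusted by the trimmed mean of M-values (TMM). Of 5 mesenchymal line markers, VIM, CD44, FN1, CAV1 and SPARC, the lowest in control cells was CAV1 at 315 CPM, with a summed level of 10067 to 12817 CPM there and 6163 to 6241 CPM in POGK cells. CAV1 rose to 554 CPM, and the other 4 fell. The epithelial markers EPCAM and ESR1 were at 0.222 and 0.207 CPM in control cells, whereas KRT8 and KRT18 were present, and the list summed to 430 to 492 CPM in control and 483 to 490 CPM in POGK cells. KRT18 rose from 124.5 to 204 CPM and KRT8 fell from 342 to 282 CPM. CDH1, CLDN3 and PGR were not analysed here. The 1 leukocyte marker of 5 in the table, PTPRC, was at 0.282 to 0.702 CPM in control and 1.40 to 1.99 CPM in POGK libraries. The 3 endothelial markers of 5 in the table, PECAM1, VWF and TEK, summed to 5.39 to 7.48 CPM and 4.56 to 5.03 CPM. PECAM1 fell from 5.18 to 3.97 CPM and VWF from 0.925 to 0.242 CPM, while TEK rose from 0.224 to 0.557 CPM. Fibroblast markers, led by COL1A1 and DCN, summed to 1039 to 1263 CPM in control and 1044 to 1072 CPM in POGK cells. Of these 5, DCN fell from 396 to 163 CPM, LUM and FAP also fell, COL3A1 rose from 1.83 to 6.33 CPM, and COL1A1 did not pass at 774 and 889 CPM without overlap. Markers of the mesenchymal, epithelial, fibroblast and endothelial lists thus moved in both directions with the group, and PTPRC rose. The part of these markers in the results below was not tested. In bulk RNA, fewer cells with a transcript and less of it per cell cannot be told apart.

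Among the ligands HGF rose, GAS6 and HBEGF fell, and AREG and TGFA fell from low levels. The 250 bases before the RefSeq transcription start (build GRCh38.p14) of these 5 genes are shown because 4 of these ligands fell and 1 rose. They are written 5′ to 3′ on the strand of the gene. Capitals mark matches on either strand to the letters of 5 motifs. The AP-1 motif was searched as TGANTCA with any base in the middle, the E-box of the MYC family as CACGTG and the Sp1 motif of GC boxes as GGGCGG. The cAMP response element was searched as TGACGTCA and the TATA box as TATAAA, and the last 2 of these were added after the sequences had been seen.
AREG (chr4:74444886-74445135, plus strand): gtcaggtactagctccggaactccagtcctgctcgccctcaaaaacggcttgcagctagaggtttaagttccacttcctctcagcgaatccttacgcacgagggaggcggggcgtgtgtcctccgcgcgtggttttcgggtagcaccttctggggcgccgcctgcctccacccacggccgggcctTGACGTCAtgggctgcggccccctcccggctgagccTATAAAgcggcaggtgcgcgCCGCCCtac
HBEGF (chr5:140346604-140346853, minus strand): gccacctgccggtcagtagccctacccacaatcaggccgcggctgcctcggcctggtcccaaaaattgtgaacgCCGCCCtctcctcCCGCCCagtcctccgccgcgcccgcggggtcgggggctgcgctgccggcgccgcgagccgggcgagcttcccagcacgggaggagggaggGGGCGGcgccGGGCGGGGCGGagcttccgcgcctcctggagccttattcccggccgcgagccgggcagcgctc
TGFA (chr2:70553827-70554076, minus strand): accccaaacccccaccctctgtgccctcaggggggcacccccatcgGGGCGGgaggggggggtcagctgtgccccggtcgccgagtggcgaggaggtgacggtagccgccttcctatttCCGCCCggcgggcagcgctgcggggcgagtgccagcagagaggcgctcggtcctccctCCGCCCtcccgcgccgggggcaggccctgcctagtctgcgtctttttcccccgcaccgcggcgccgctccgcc
HGF (chr7:81770048-81770297, minus strand): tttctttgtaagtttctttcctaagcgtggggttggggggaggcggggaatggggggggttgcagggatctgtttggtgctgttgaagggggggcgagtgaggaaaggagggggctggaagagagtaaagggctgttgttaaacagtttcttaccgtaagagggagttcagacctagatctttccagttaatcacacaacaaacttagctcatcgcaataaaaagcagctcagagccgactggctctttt
GAS6 (chr13:113864077-113864326, minus strand): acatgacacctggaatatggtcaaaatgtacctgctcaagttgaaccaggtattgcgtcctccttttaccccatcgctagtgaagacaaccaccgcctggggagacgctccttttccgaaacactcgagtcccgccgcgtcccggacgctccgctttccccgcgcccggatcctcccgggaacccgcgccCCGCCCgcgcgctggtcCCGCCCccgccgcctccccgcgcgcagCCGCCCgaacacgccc

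The AREG promoter held 1 Sp1 match, 1 cAMP response element match starting 65 bases before the transcription start and 1 TATA match starting 29 bases before it. HBEGF had 5 Sp1 matches, of which 2 share a base, and TGFA and GAS6 had 3 each. HGF had no match to any of the 5 patterns, and its promoter was 50.0% GC against 65.2% for AREG and 76.4% for HBEGF, where the median of all promoters was 58.0%. Among 35116 RefSeq promoters of the same length, 42.64% held the Sp1 letters, 6.57% the AP-1 letters, 6.34% the E-box letters, 1.65% the cAMP response element and 10.72% the TATA letters. Promoters were matched for 28 of the 33 members. Of these, 19 held Sp1 letters, 3 held AP-1 letters and 0 held the E-box. Split by the test below, Sp1 letters were in 12 of 14 promoters of members that fell and in 4 of 7 of those that rose. AP-1 letters were in 1 of 14 and 1 of 7, the cAMP response element in 1 and 0, TATA letters in 2 and 0, and the E-box in 0 and 0. A link between these letters and the direction of change was not tested. A match describes letters in this window, not binding.

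Receptors and ligands both moved more often down than up. Of 19 receptors tested, 4 rose (21.1%), 10 fell (52.6%) and 5 did not pass, and 2 rose without POGK replicate 1 or without POGK replicate 3. Of 13 ligands tested, 4 rose (30.8%), 7 fell (53.8%) and 2 did not pass. The test was edgeR's quasi-likelihood test, called at a Benjamini-Hochberg adjusted p below 0.05 over all 15889 genes tested. Over all of those genes 66.0% were called, 32.7% higher and 33.3% lower. The share that rose was below this background for receptors and near it for ligands, and the share that fell was above it for both. The groups did not overlap for 4 receptors and 4 ligands with POGK cells higher and for 10 receptors and 7 ligands with POGK cells lower, against 73.7% of all genes tested, 36.8% each way. The median log2 fold change was -0.32 for receptors and -0.31 for ligands, against 0.0025 for all genes tested. With library size alone as scaling, which moves the median of all genes to 0.19, these medians were -0.13 and -0.12. On that scale 6 receptors rose and 7 fell, 4 ligands rose and 6 fell, and 6575 genes of all tested rose and 3925 fell.

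What differed between the member receptors and the member ligands was the size of the change. Among the tested ligands 8 of 13, or 61.5%, passed with at least a 2-fold difference, against 4 of 19 receptors (21.1%) and 22.3% of all genes tested. The median absolute log2 fold change was 1.19 for ligands, 0.39 for receptors and 0.52 for all genes. Of these, 5 of the 8 ligands and 3 of the 4 receptors with a 2-fold difference were below 5 CPM in both groups. At or above 5 CPM in at least 1 group, 3 of 8 ligands (GAS6, HBEGF and HGF) and 1 of 15 receptors (PDGFRB) differed at least 2-fold, against 17.2% of all genes at that level. INSR, at 1.99-fold, was just under the 2-fold limit. Outside the members, 7 other receptor tyrosine kinases were tested, and 1 rose and 3 fell at least 2-fold, all below 5 CPM. Of 14 other ligands tested, 0 rose and 9 fell at least 2-fold. Of these 9, PROS1, CSF1, ANGPT1 and MST1 were at or above 5 CPM in control cells and fell 3.48-fold, 2.17-fold, 2.10-fold and 2.86-fold. KITLG, also at that level, did not pass, at 1.04-fold. The other receptors at that level, ROS1 and LMTK2, fell 1.94-fold and rose 1.26-fold. The contrast in size was thus small over all tested genes of the other lists, but recurred at or above 5 CPM in few genes. All these counts are over chosen lists, and no test was made of receptors against ligands.

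**Figure D1:**
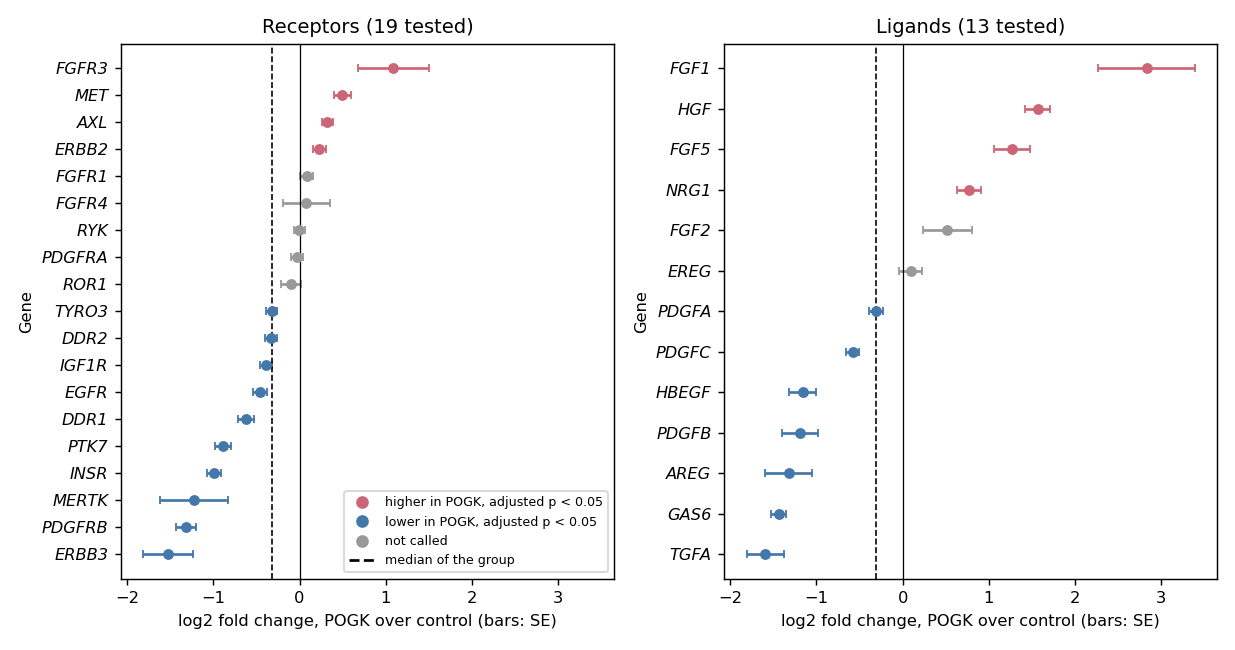
Log2 fold change of POGK over control cells (x axis) for each tested receptor (left) and ligand (right), with standard errors as bars, colour giving the edgeR call and a dashed line the median of the group. Receptors other than FGFR3 lie between -1.52 and 0.49, while ligands run from -1.59 for TGFA to 2.83 for FGF1.

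Summed over the members, receptor transcripts took 1644 to 1668 CPM in the control libraries and 1538 to 1553 CPM in the POGK libraries. Ligand transcripts took 426 to 461 CPM in control and 362 to 370.0 CPM in POGK libraries. On this TMM scale neither range overlapped between groups. With library size alone, a comparison added after seeing the data, the receptor sum was higher in POGK libraries, at 1634 to 1666 CPM against 1454 to 1606 CPM, and the ligand sums overlapped, at 385 to 397 CPM against 391 to 443 CPM. AXL made the largest contribution to the receptor sum, at 21.1% to 21.6% in control and 28.4% to 28.8% in POGK libraries. Replicate spread was uneven. The coefficient of variation was larger in control than in POGK cells for 27 of 32 tested members, with medians of 11.6% and 3.85%. This was not particular to the members. Over the genes of the table, chi-square per gene between replicates was 22.5 to 49.7 in control and 1.36 to 2.62 in POGK cells. Because edgeR fitted a common spread to both groups, limma-voom with a separate weight per group was run as an alternative, and it is named below where it changed a call.

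The EGFR family receptors did not move together. EGFR, the receptor for AREG, EREG, BTC, HBEGF and TGFA (ENSG00000146648; hg38 chromosome 7, 55019017 to 55211628, plus strand), was at 184, 221 and 202 CPM in the control libraries and 149, 151 and 143 CPM in the POGK libraries. All 3 POGK libraries lay below all 3 control libraries. It fell 1.37-fold, with a log2 fold change of -0.45, a standard error of 0.08 and an edgeR adjusted p of 0.000997. With library size alone the log2 fold change of EGFR was -0.26 at an edgeR adjusted p of 0.039. ERBB2, a partner receptor with no known ligand of its own, was at 66.4, 77.2 and 75.0 CPM in control and 87.5, 81.8 and 87.3 CPM in POGK libraries. It rose 1.17-fold at an edgeR adjusted p of 0.0246, but without POGK replicate 1 or 3 the adjusted p was 0.0898 or 0.0868. Its exons share 571 bases with MIEN1 on the opposite strand, which rose too (log2 fold change 0.28), and 144 with PGAP3, which fell (-0.68). The strand setting of the counting is not given in the sources used here, so reads of such partners cannot be told apart. ERBB3, a kinase-poor neuregulin receptor, was low, at 2.17, 1.76 and 3.17 CPM in control libraries and 0.587, 0.885 and 1.01 CPM in POGK libraries, and fell 2.87-fold (edgeR adjusted p = 0.00151).

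Among the member EGFR ligands, 3 fell and the most abundant one did not pass the test. EGF, an EGFR ligand outside the member list, also fell, 1.47-fold from 4.04 to 2.72 CPM (edgeR adjusted p = 0.0222). HBEGF, heparin-binding EGF-like growth factor (ENSG00000113070; chromosome 5, 140332843 to 140346603, minus strand), was at 30.1, 30.6 and 20.1 CPM in the control libraries against 13.0, 11.4 and 11.7 CPM in the POGK libraries. Control replicate 3 was the lowest control library and still stood above every POGK library. HBEGF fell 2.24-fold, with a log2 fold change of -1.16 ± 0.16 (SE) and an edgeR adjusted p of 0.000262. TGFA, transforming growth factor alpha (ENSG00000163235; chromosome 2, 70447284 to 70554193, minus strand), had 82, 83 and 102 counts in control and 29, 47 and 29 counts in POGK libraries. It fell 3.02-fold at an edgeR adjusted p of 0.00024. AREG, amphiregulin, had 64, 93 and 45 counts against 29, 36 and 30, with no overlap after scaling, and fell 2.50-fold at an edgeR adjusted p of 0.00238.

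EREG, epiregulin, was at 96.3, 104 and 68.0 CPM in control and 96.9, 92.4 and 96.0 CPM in POGK libraries. Its log2 fold change was 0.09 ± 0.14 (SE), the groups overlapped, and the sign turned to -0.07 without control replicate 3, the low library. BTC, betacellulin, had 8, 11 and 4 counts in control and 8, 10 and 5 counts in POGK libraries, too few for the test. EREG, AREG and BTC lie in a cluster on chromosome 4 with EPGN, the gene of epigen. EPGN lies at 74308470 to 74316789, EREG at 74365145 to 74388749, AREG at 74445136 to 74455005 and BTC at 74744759 to 74794523. EREG and AREG are 56387 bases apart and on the same strand, and AREG fell while EREG, next to it, did not pass. EPGN had 1, 4 and 1 counts in control and 5, 9 and 7 in POGK libraries and was not tested.

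On the RPKM scale, which is CPM divided by exon length in kilobases, EREG made up 57.6%, 58.8% and 58.6% of the summed level of EREG, AREG, BTC, HBEGF and TGFA in control libraries, against 76.9%, 77.1% and 77.8% in POGK libraries. The share of HBEGF went from 33.6% ± 0.71 to 18.7% ± 0.90 (SD, n = 3 each). These shares are ratios within a library and do not depend on the scaling between libraries.

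NRG1, neuregulin 1, which binds ERBB3 and ERBB4, was at 13.1, 19.4 and 15.1 CPM in control and 25.4, 28.4 and 27.2 CPM in POGK libraries. It rose 1.70-fold (edgeR adjusted p = 0.00116), with control replicate 2 the highest control library. The receptors that bind it were low or fell: ERBB3 as above, and ERBB4, which is outside the member list, from a mean of 1.81 to 0.133 CPM.

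**Figure D2:**
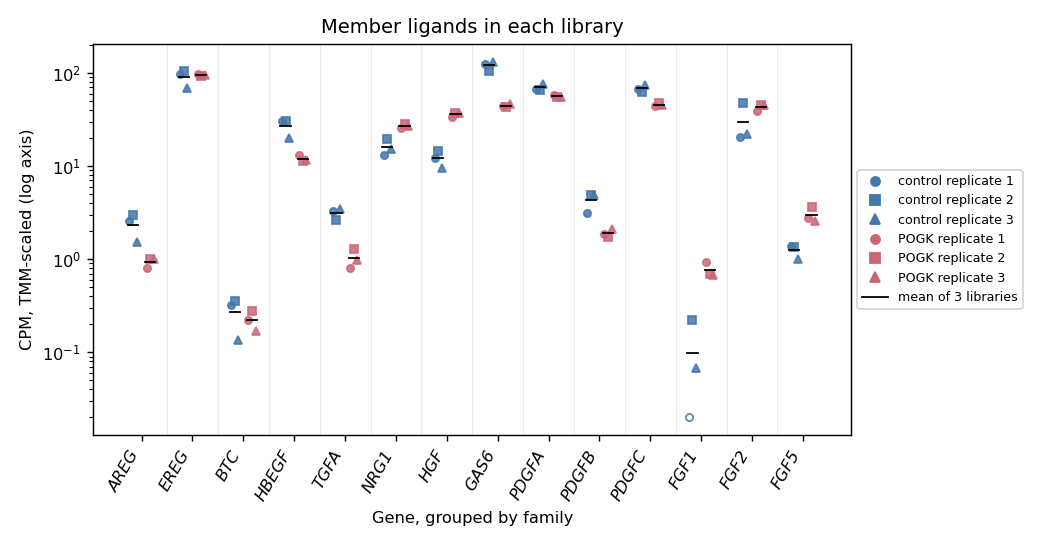
CPM on a log axis for each of 14 ligands in each of 6 libraries, with control replicates in blue, POGK replicates in red and a line at the mean of 3 libraries. The open symbol for FGF1 stands for control replicate 1, which had 0 counts and is drawn at the foot of the axis; HGF, NRG1, FGF1 and FGF5 sit higher in all POGK libraries, and GAS6, HBEGF, AREG, TGFA and the 3 PDGF genes lower.

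MET and its ligand both rose. MET, the receptor for hepatocyte growth factor (ENSG00000105976; chromosome 7, 116672196 to 116798377, plus strand), was at 147, 187 and 149 CPM in control libraries and 219.5, 232 and 229 CPM in POGK libraries. Control replicate 2 was the nearest to the POGK group and the groups did not overlap. It rose 1.41-fold, with a log2 fold change of 0.49 ± 0.10 (SE) at an edgeR adjusted p of 0.00199. HGF (ENSG00000019991; chromosome 7, 81699010 to 81770438, minus strand) was at 12.2, 14.5 and 9.47 CPM in control and 33.6, 36.9 and 36.8 CPM in POGK libraries. Every POGK library had more than 2 times the highest control library. It rose 2.96-fold, with a log2 fold change of 1.57 ± 0.14 (SE) at an edgeR adjusted p of 3.04e-05.

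Per length, MET stood at 1.76, 1.87 and 1.63 times EGFR in the control libraries and at 3.25, 3.40 and 3.53 times EGFR in the POGK libraries. The order in control cells rests on the annotated exon lengths, 7224 bases for MET and 15941 for EGFR. In CPM, EGFR stood above MET in every control library and below it in every POGK library. MET exceeded HGF 16.3-fold, 17.4-fold and 21.3-fold in control libraries and 8.82-fold, 8.50-fold and 8.42-fold in POGK libraries.

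In the TAM family, AXL rose while its relatives and its ligand fell. AXL (ENSG00000167601; chromosome 19, 41219223 to 41261766, plus strand) was at 347, 359 and 357 CPM in control and 437, 445 and 448 CPM in POGK libraries, a narrow spread in both groups. It rose 1.25-fold with a log2 fold change of 0.32 ± 0.07 (SE) at an edgeR adjusted p of 0.00213. TYRO3 was at 68.6, 65.4 and 68.3 CPM against 53.7, 54.1 and 53.7 CPM and fell 1.25-fold (edgeR adjusted p = 0.0017), a call lost with library size alone, at -0.13. MERTK had 20, 22 and 23 counts in control and 15, 15 and 3 counts in POGK libraries. It passed at an edgeR adjusted p of 0.0221 with a log2 fold change of -1.23, but not without control replicate 1 (0.054) or 3 (0.0656), nor with a weight per group in limma-voom (0.0737).

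GAS6, the vitamin K-dependent ligand of all 3 TAM receptors (ENSG00000183087; chromosome 13, 113820549 to 113864076, minus strand), was at 124, 105 and 132 CPM in control and 44.3, 42.6 and 46.0 CPM in POGK libraries. The lowest control library was above 2 times the highest POGK library. GAS6 fell 2.71-fold, with a log2 fold change of -1.44 ± 0.09 (SE) and an edgeR adjusted p of 6.42e-06, the smallest among the members. GAS6-AS1, which shares 421 exon bases with it on the opposite strand, was at 0.531 CPM in control and 0.129 CPM in POGK cells. PROS1, protein S, the other TAM ligand and not a member, fell 3.48-fold from 173 ± 27.0 to 49.7 ± 0.77 CPM (SD, n = 3 each). Within a library, GAS6 per AXL was 0.304, 0.250 and 0.315 in control and 0.0865, 0.0818 and 0.0877 in POGK cells on the RPKM scale, and AXL per TYRO3 was 10.6, 11.5 and 11.0 against 17.1, 17.2 and 17.5.

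The insulin and IGF receptors fell, INSR further than IGF1R. INSR, the insulin receptor (ENSG00000171105; chromosome 19, 7112255 to 7294414, minus strand), was at 70.1, 58.6 and 61.9 CPM in control and 31.2, 32.4 and 32.3 CPM in POGK libraries. It fell 1.99-fold, with a log2 fold change of -0.99 ± 0.08 (SE) at an edgeR adjusted p of 2.15e-05. IGF1R, its close relative for insulin-like growth factors, was at 48.5, 50.4 and 52.1 CPM against 39.9, 38.6 and 36.9 CPM and fell 1.31-fold (edgeR adjusted p = 0.00131). That call was lost with library size alone, at a log2 fold change of -0.20 and an edgeR adjusted p of 0.0689. INSR per IGF1R on the RPKM scale went from 1.86, 1.50 and 1.53 in control to 1.01, 1.08 and 1.12 in POGK libraries, with no overlap.

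**Figure D3:**
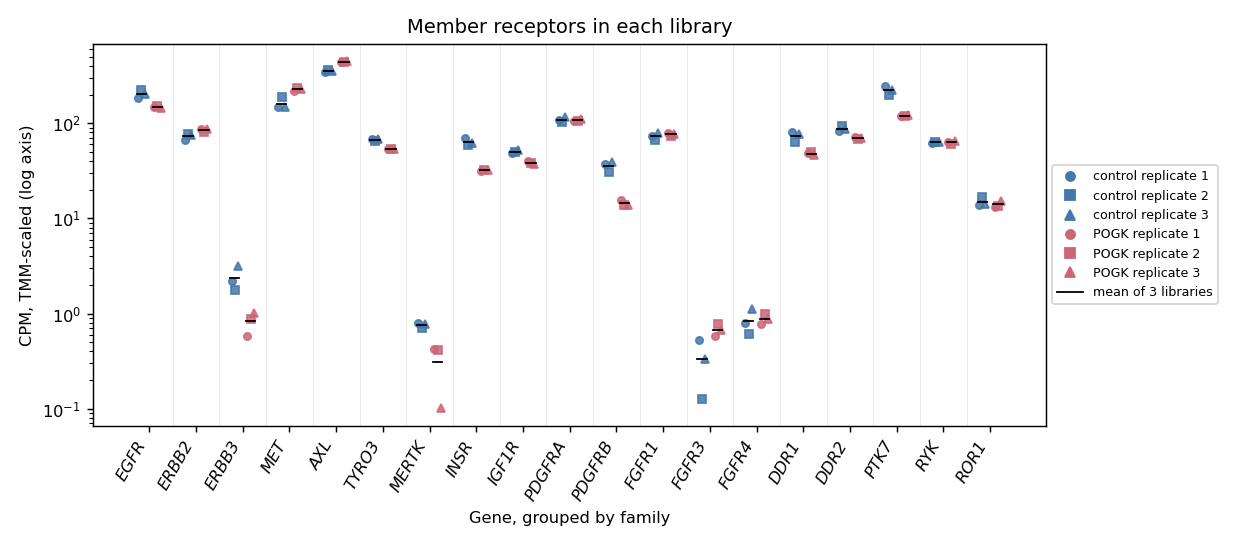
CPM on a log axis for each of 19 receptors in each of 6 libraries, with control replicates in blue, POGK replicates in red and a line at the mean of 3 libraries. AXL, MET, ERBB2 and FGFR3 sit higher in all POGK libraries, and ERBB3, MERTK, FGFR3 and FGFR4 lie far below the other receptors, at no more than 3.17 CPM.

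In the PDGF system the 3 member ligands fell, along with only 1 of the receptor genes. PDGFRA was at 109, 102 and 117 CPM in control and 105, 105 and 111 CPM in POGK libraries, with overlapping groups and a log2 fold change of -0.03 ± 0.07 (SE) at an edgeR adjusted p of 0.735. PDGFRB (ENSG00000113721; chromosome 5, 150113839 to 150155872, minus strand) was at 37.7, 30.8 and 39.1 CPM in control and 15.6, 13.7 and 13.9 CPM in POGK libraries. It fell 2.50-fold with a log2 fold change of -1.32 ± 0.11 (SE) at an edgeR adjusted p of 2.26e-05. PDGFRB per PDGFRA, a ratio within a library, was 0.461, 0.405 and 0.447 in control against 0.198, 0.174 and 0.167 in POGK cells.

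PDGFB, the ligand chain that binds both PDGF receptors, was at 3.10, 4.85 and 4.92 CPM in control and 1.84, 1.74 and 2.09 CPM in POGK libraries and fell 2.28-fold (edgeR adjusted p = 0.000914). PDGFC, which is secreted in latent form, was at 67.9, 62.7 and 73.3 CPM against 44.1, 47.3 and 44.9 CPM and fell 1.50-fold (edgeR adjusted p = 0.00023). PDGFA, whose product binds PDGFRA, was at 67.1, 66.1 and 75.9 CPM against 58.1, 55.4 and 55.3 CPM and fell 1.24-fold (edgeR adjusted p = 0.00591). With library size alone PDGFA did not pass, at -0.12. For all 3 of these ligands the groups did not overlap. PDGFD, a PDGF ligand outside the member list, was at 3.61 and 2.72 CPM in control and POGK cells, with overlapping groups. It did not pass, at a log2 fold change of -0.40 and an edgeR adjusted p of 0.0978.

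Of 3 fibroblast growth factor genes, 2 rose, both at low levels, and the most abundant did not pass. FGF1 (ENSG00000113578; chromosome 5, 142592178 to 142698070, minus strand) had 0, 7 and 2 counts in control and 33, 25 and 20 counts in POGK libraries. Its log2 fold change was 2.83 ± 0.56 (SE) at an edgeR adjusted p of 0.00189, and 4.25 when control replicate 2 was left out, the library with 7 of the 9 control counts. FGF5 (ENSG00000138675; chromosome 4, 80266639 to 80336680, plus strand) was at 1.37, 1.34 and 1.01 CPM in control and 2.74, 3.59 and 2.56 CPM in POGK libraries and rose 2.40-fold (edgeR adjusted p = 0.000705). FGF2, basic fibroblast growth factor, was at 20.7, 47.0 and 21.8 CPM in control and 39.1, 44.8 and 44.6 CPM in POGK libraries. Control replicate 2 stood above all 3 POGK libraries, and the other control libraries below them. FGF2 did not pass, with a log2 fold change of 0.52 ± 0.28 (SE) at an edgeR adjusted p of 0.141. Without control replicate 2 it was 1.01 at an edgeR adjusted p of 2.12e-05, and FGF2 also passed at 0.0194 with a weight per group in limma-voom. It shares 804 exon bases with NUDT6 on the opposite strand, which was at 7.14 CPM in control and 7.21 CPM in POGK cells.

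Of the FGF receptors, FGFR1 was the abundant one, at 72.7, 66.7 and 78.7 CPM in control and 79.0, 74.4 and 77.8 CPM in POGK libraries. The groups overlapped and its log2 fold change was 0.08 ± 0.08 (SE), though with library size alone it passed at 0.28 and an edgeR adjusted p of 0.0181. FGFR3 had 13, 4 and 10 counts in control and 21, 28 and 20 in POGK libraries. It passed at an edgeR adjusted p of 0.041 and lost the call without any 1 library other than control replicate 1, at adjusted p-values up to 0.119, and it also did not pass with DESeq2 (adjusted p = 0.0726) or with a weight per group in limma-voom (0.0635). FGFR4 had 20, 19 and 33 counts against 28, 36 and 26 and did not pass (log2 fold change 0.08 ± 0.27, SE).

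The collagen receptors DDR1 and DDR2 both fell. DDR1 was at 80.6, 64.3 and 76.4 CPM in control and 48.6, 49.5 and 46.1 CPM in POGK libraries, a 1.54-fold fall (edgeR adjusted p = 0.000395). DDR2, typical of mesenchymal cells, was at 83.2, 94.4 and 86.2 CPM against 72.6, 67.9 and 69.5 CPM, a 1.26-fold fall (edgeR adjusted p = 0.00318) that was lost with library size alone, at -0.14. The ratio of DDR1 to DDR2 overlapped between groups, at 0.829 to 1.18 in control and 0.807 to 0.886 in POGK libraries on the RPKM scale.

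Of the 3 receptors known from WNT signalling, PTK7 fell and RYK and ROR1 did not pass. PTK7, a pseudokinase of planar cell polarity (ENSG00000112655; chromosome 6, 43076307 to 43161719, plus strand), was at 247, 196 and 222 CPM in control and 119.6, 119 and 121 CPM in POGK libraries. It fell 1.85-fold, with a log2 fold change of -0.89 ± 0.09 (SE) at an edgeR adjusted p of 4.59e-05. RYK was at 62.4, 63.7 and 63.9 CPM against 62.9, 61.2 and 65.2 CPM, with a log2 fold change of -0.01 ± 0.06 (SE). ROR1 was at 13.7, 16.9 and 14.2 CPM against 13.3, 13.6 and 15.1 CPM, with a log2 fold change of -0.10 ± 0.11 (SE). For both the groups overlapped, although RYK passed at 0.19 with library size alone.

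**Figure D4:**
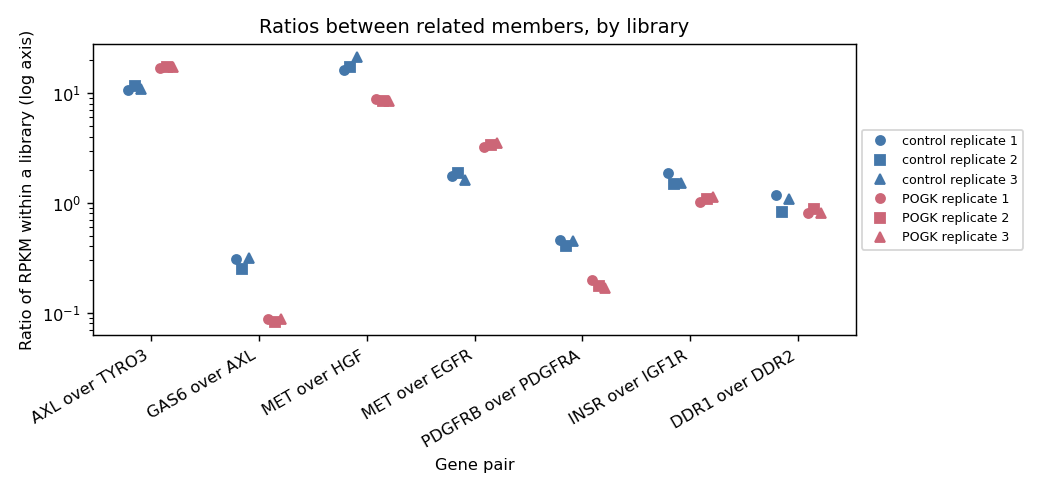
Ratio of RPKM between related members within each library (log axis) for 7 gene pairs, with control replicates in blue and POGK replicates in red. The groups are apart for 6 of the 7 pairs, and DDR1 over DDR2 overlaps.

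Levels of different genes were compared per length, as RPKM over the union of annotated exons, which understates genes with long rare isoforms. In control cells AXL led the receptors at 69.0 ± 1.18 RPKM (SD, n = 3), followed by PTK7 at 24.7 ± 2.84 and MET at 22.3 ± 3.13, which overlapped, then EGFR at 12.7 and PDGFRA at 11.5, which also overlapped. DDR1, DDR2 and RYK, at 8.09, 7.92 and 7.76 RPKM, could not be ordered beyond their spread, nor could TYRO3, INSR, PDGFRB and FGFR1, at 6.26, 5.86, 5.03 and 4.23, each against its neighbour. ERBB2 was at 7.06, IGF1R at 3.61 and ROR1 at 2.22 RPKM, and ERBB3, MERTK, FGFR4 and FGFR3 were at 0.202 RPKM or less. In POGK cells the leading receptors were AXL at 86.3 ± 1.06, MET at 31.4 ± 0.92 and PTK7 at 13.3 ± 0.14 RPKM, each apart from the next. PDGFRA stood above EGFR there, at 11.2 against 9.27 RPKM, without overlap, and PDGFRB was next to ROR1 at 2.01 and 2.08 RPKM.

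GAS6, EREG and PDGFA led the ligands in control cells at 20.0, 15.6 and 15.2 RPKM, with overlapping neighbours. In POGK cells EREG led at 16.6 ± 0.42, ahead of PDGFA at 12.3 ± 0.34, and GAS6 had dropped to 7.37 ± 0.28 RPKM, overlapping PDGFC at 7.58. HGF stood at 1.24 RPKM beside AREG and PDGFB in control cells and at 3.67 RPKM beside HBEGF at 4.02 RPKM in POGK cells, where HGF and HBEGF did not overlap.

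**Figure D5:**
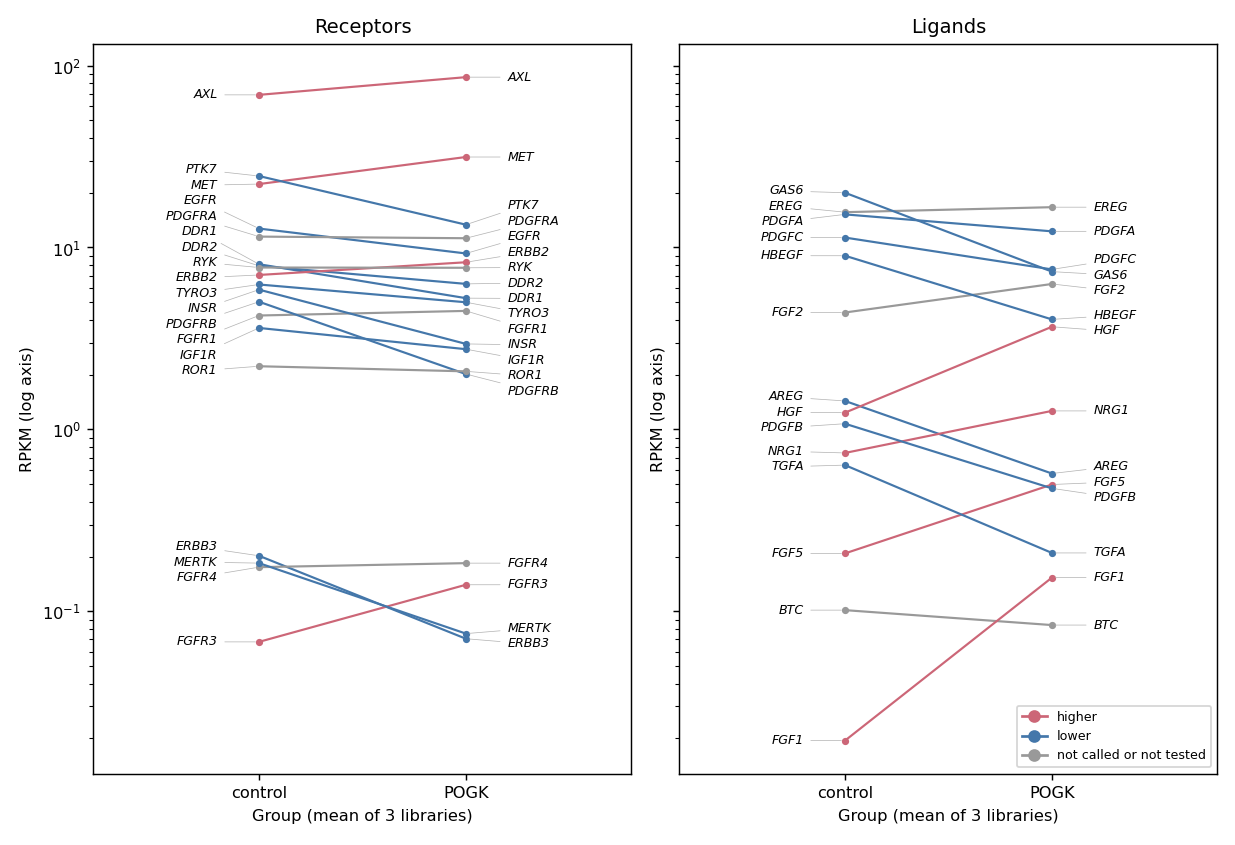
Mean RPKM of each receptor (left) and ligand (right) in control and POGK cells on a log axis, with lines joining the values of a gene and colour giving the edgeR call. GAS6 drops from 20.0 to 7.37 RPKM and HGF climbs from 1.24 to 3.67 RPKM, while AXL stays at the top of the receptors.

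More of the receptor system was described with lists of other receptors, other ligands and the proteins that act around them, tested in the fit over all genes. These lists do not cover the whole family, as they leave out the Eph and VEGF receptors and their ligands. Of 19 other receptor tyrosine kinase genes, 7 could be tested, and 3 rose (42.9%) and 4 fell (57.1%), where 32.7% of all genes tested rose and 33.3% fell. ROS1 was abundant at 459, 399 and 483 CPM in control and 231, 230.2 and 230.3 CPM in POGK libraries, and fell 1.94-fold (edgeR adjusted p = 2.53e-05). LMTK3, a lemur kinase, fell 5.82-fold from 2.14 ± 0.40 CPM, LMTK2 rose 1.26-fold from 25.7 ± 2.11 CPM, and TEK, the angiopoietin receptor, rose from 0.224 to 0.557 CPM. The number that rose was 1 without control replicate 1, control replicate 3 or POGK replicate 1.

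Most of the other ligands on this list moved down. Of 14 tested, 11 fell and 0 rose, the remaining 3 did not pass, and the median was -1.22 on the log2 scale, where 33.3% of all genes tested fell. Besides PROS1, BDNF, a neurotrophin, fell 6.58-fold from 2.94 ± 0.37 to 0.443 ± 0.0043 CPM (SD, n = 3 each; edgeR adjusted p = 1.27e-05). No ligand of this list rose at an unadjusted p below 0.05 in edgeR (0 of 14), and DESeq2 and limma-voom also called 0 higher, while edgeR with library size alone called 1.

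Of 21 adaptor and PI3K genes tested, 4 rose (19.0%) and 11 fell (52.4%), with a median log2 fold change of -0.19, against 32.7% and 33.3% of all genes. IRS2 and IRS1, the docking proteins of the insulin and IGF receptors, fell 4.60-fold and 2.34-fold, IRS2 from 125, 86.6 and 88.5 CPM in control to 22.2, 21.7 and 21.2 CPM in POGK libraries (edgeR adjusted p = 6.42e-06). PTPN11, the phosphatase SHP2, and PIK3CB, a PI3K catalytic subunit, rose 1.34-fold and 1.41-fold.

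Of 16 negative regulators and trafficking genes tested, 5 rose, 5 fell and 6 did not pass, or 31.2% in each direction, near the 32.7% and 33.3% of all genes. ERRFI1, an inhibitor of EGFR, was at 1764, 1171 and 1276 CPM in control and 347, 355 and 357 CPM in POGK libraries and fell 3.97-fold (edgeR adjusted p = 1.14e-05). LRIG2 fell 1.76-fold, and SH3KBP1, which links CBL to endocytosis, and SOCS4 rose 1.90-fold and 1.63-fold.

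Of 14 genes that process or restrain ligands, 5 rose (35.7%) and 3 fell (21.4%), against 32.7% and 33.3% of all genes. TIMP3, an inhibitor of ADAM17, rose 2.14-fold from 88.3 ± 11.9 to 189 ± 1.56 CPM (edgeR adjusted p = 2.36e-05) and RHBDF2, which carries ADAM17 to the cell surface, rose 1.68-fold. ADAM9 and ADAM15 fell 2.03-fold and 1.42-fold. ADAM12 rose 1.44-fold from 92.7 to 133 CPM (edgeR adjusted p = 0.000836). ADAM10 rose 1.17-fold from 132 to 154 CPM (edgeR adjusted p = 0.00866). ADAM17 itself was at 59.5 and 52.6 CPM in control and POGK cells and did not pass (log2 fold change -0.18). ADAM10, ADAM12 and ADAM17 were chosen after their values were seen.

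Of 8 tested heparan sulfate proteoglycans and related co-receptors, which hold FGFs and HBEGF at the cell surface, 1 rose (12.5%) and 5 fell (62.5%), against 32.7% and 33.3% of all genes. SDC4, syndecan 4, fell 3.73-fold from 1182, 798 and 691 CPM to 239, 237 and 240.0 CPM (edgeR adjusted p = 3.65e-05), GPC6 fell 1.85-fold, and SDC1 rose 1.41-fold. With library size alone 2 rose.

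In the authors' deposited table the log2 fold changes of HGF, GAS6, INSR and PDGFRB were 1.57, -1.44, -0.99 and -1.32. FGFR3, whose call was lost in several settings above, was at 1.09 there, with an adjusted p of 0.0184 from the authors' own test.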

How the data were processed

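RNA of 3 control and 3 POGK libraries of SUM159 cells was measured after ribosomal RNA depletion, per the labels' protocols, on build hg38. Tools named in the submitters' processing notes were featureCounts, STAR, Trimmomatic, SAMtools and deepTools; versions, annotation and strand setting are not stated there. The authors deposited raw read counts for 18398 genes, a normalized signal per library (count over size factor, from its values), and their log2 fold change, test score and p-value. Tests used the counts.

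The test was edgeR 4.0.16 (R 4.3.3), quasi-likelihood with TMM scaling, robust estimation and the default filter, adjusted over 15889 genes with calls at an adjusted p below 0.05. Standard errors came from its F statistic. Alternatives were DESeq2 1.42.0, limma-voom (limma 3.58.1) with and without group weights, DESeq2-style size factors, scaling by library size alone, omission of the filter, a minimum of 1 CPM in 3 libraries, a replicate block, and omission of each library. GENCODE release 44 (hg38) gave lengths and positions for 18264 identifiers, and RefSeq gave promoters. The fits were tested on simulated counts. No 2 libraries agreed within sampling noise (chi-square per gene of at least 1.36), so all 6 were kept. The control pairs were at 49.7, 37.9 and 22.5, the first 2 of them with control replicate 1, and the POGK pairs at 2.62, 2.56 and 1.36.

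Members and lists were chosen with earlier results of these data known. Every member is named, and from each other list the 2 genes with the smallest adjusted p in each direction. ERBB4, EPGN, EGF, PDGFD, CSF1, ANGPT1, MST1, KITLG, ADAM10, ADAM12 and ADAM17 are named outside this rule and were picked with their values in view. Exon-sharing partners and cell type markers are also named outside it.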

Additional observations from a re-analysis of the deposited data

How the results depend on the processing

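Over the 14 alternatives, 413 of the member values kept their direction and their side of the threshold. Of the rest, 16 lost their call, 3 gained one with the same sign and 12 changed sign. The sign changes all concerned genes that did not pass in the reported fit. With library size alone these were RYK (0.19), PDGFRA (0.16) and ROR1 (0.10), and without a filter RYK (0.0029). RYK with library size alone also gained a call, at an edgeR adjusted p of 0.0482. With 1 library left out, the log2 fold change ran from -0.022 to 0.021 for RYK, from -0.078 to 0.020 for PDGFRA, from -0.15 to 0.0045 for ROR1, from -0.13 to 0.34 for FGFR4 and from -0.074 to 0.21 for EREG. With library size alone the median log2 fold changes were -0.13 for receptors and -0.12 for ligands, and 1 of the other ligands and 2 co-receptors were called higher. With a filter of 1 CPM in 3 libraries the ligand median was -0.46, since FGF1 leaves the fit (as do the receptors MERTK, FGFR3 and FGFR4), and 1 of the other receptors was called higher, as with group weights in limma-voom. With 1 library left out, 2 to 4 member receptors and 1 to 3 other receptors were called higher, the receptor median lay between -0.32 and -0.27 and the ligand median between -0.35 and -0.25. The replicate number did not pair the libraries (correlations of deviations of 0.079, 0.037 and 0.0037 for the 3 numbers). With the replicate block, 4 receptors rose and 10 fell, 4 ligands rose and 7 fell, and 5136 genes were higher and 5103 lower over all genes. No member changed its call under the block. FGFR3, MERTK, FGF1 and FGFR4, with few reads, are limited by depth.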
